A study of Mus musculus with 4 samples.

Results

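Lyve1, Mrc1, Cd163 and Folr2 encode 4 uptake receptors that are widely used to mark tissue-resident macrophages. They were found by gene symbol among the 31053 genes of the deposited matrices, and all 4 were present. The genes were chosen by their measured levels in macrophages and monocytes of these same libraries, so their differences between labels in those cells are described here without a p-value. The libraries came from lungs of Balb/c mice, taken 14 days after 4T1 cells had been given by vein. 4T1 is a mammary carcinoma line of mouse origin that forms lung tumours by this route. In 2 libraries the injected cells were labelled PD-L1 KO, that is, lacking the protein that engages the T cell inhibitory receptor PD-1, and in 2 libraries they were labelled 4T1 WT. The mice themselves carried no stated mutation in either group, so any PD-L1 made by host cells was not removed. Lungs were perfused, digested and enriched for cells bearing CD45, the leukocyte surface protein, before droplet capture.

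The sample labels and the names of the deposited files give opposite conditions for every library. The sample labels were followed, and each direction below depends on this choice. Whether the libraries of a group came from separate mice is not stated, so every p-value rests on a spread that may be technical in origin. After filtering, 9054 of 10382 barcodes remained (2220 and 2019 in the libraries labelled PD-L1 KO, 2451 and 2364 in those labelled WT), with medians of 4395 to 5512 UMIs per cell. A UMI is a tag that marks 1 captured RNA molecule. No pair of libraries had more than 3 barcodes in common. Library 2 labelled WT stood apart: 13.7% of its kept cells were endothelial, against 5.71% to 7.16% in the other 3 libraries, although the cells had been selected for CD45.

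Macrophages of the lung fall into alveolar macrophages, which live in the airspaces, and interstitial macrophages, which live in the tissue around vessels and airways. Resident interstitial macrophages near vessels are known for LYVE1, a receptor for the matrix sugar hyaluronan that lymphatic endothelium also carries, and for FOLR2, a folate receptor anchored in the membrane by a lipid. CD163 takes up complexes of haemoglobin and haptoglobin, and MRC1, the mannose receptor CD206, takes up glycoproteins with mannose at their ends. MRC1 is also an established marker of alveolar macrophages.

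In the mm10 annotation (GENCODE), Lyve1 (ENSMUSG00000030787) lies on the minus strand of chromosome 7 from 110850607 to 110863239, and Folr2 (ENSMUSG00000032725) on the minus strand of the same chromosome from 101839988 to 101857194. Mrc1 (ENSMUSG00000026712) lies on the plus strand of chromosome 2 from 14229392 to 14332057, and Cd163 (ENSMUSG00000008845) on the plus strand of chromosome 6 from 124304656 to 124330527. Each is protein coding. The promoter windows below are shown because the receptors were often found in the same C1q macrophages while Mrc1 had its highest level in another cell class. They run from 250 bases before to 50 bases after a gene start, are taken from RefSeq (GRCm38.p6) and read 5′ to 3′ on the gene's strand. Capitals mark the only motifs that were searched, on both strands: GAGGAA (or TTCCTC), a core bound by the myeloid factor PU.1, and TGCTGA (or TCAGCA), a half-site of MAF factors.
Mrc1, chr2:14229164-14229463, plus strand: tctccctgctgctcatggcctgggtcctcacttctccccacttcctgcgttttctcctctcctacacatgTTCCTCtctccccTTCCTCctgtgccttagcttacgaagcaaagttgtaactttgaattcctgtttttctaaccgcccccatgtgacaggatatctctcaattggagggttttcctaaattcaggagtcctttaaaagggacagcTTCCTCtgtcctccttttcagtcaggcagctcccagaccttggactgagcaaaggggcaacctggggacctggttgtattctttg
Cd163, chr6:124304401-124304700, plus strand: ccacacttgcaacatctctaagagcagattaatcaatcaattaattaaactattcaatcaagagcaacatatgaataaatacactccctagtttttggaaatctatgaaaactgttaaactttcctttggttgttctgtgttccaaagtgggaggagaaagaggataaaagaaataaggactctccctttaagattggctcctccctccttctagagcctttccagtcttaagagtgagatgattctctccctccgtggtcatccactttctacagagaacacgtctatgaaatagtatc
Folr2, chr7:101857141-101857440, minus strand: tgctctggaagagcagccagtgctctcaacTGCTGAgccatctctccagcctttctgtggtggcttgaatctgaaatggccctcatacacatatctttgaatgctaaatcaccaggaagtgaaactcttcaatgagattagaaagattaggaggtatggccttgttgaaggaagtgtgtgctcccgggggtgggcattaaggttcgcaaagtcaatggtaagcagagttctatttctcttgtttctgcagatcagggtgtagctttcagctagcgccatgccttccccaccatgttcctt
The Mrc1 window held 3 matches to the PU.1 core, and the windows of Cd163 and Folr2 held 0. The Folr2 window held 1 match to the MAF half-site. A second RefSeq window of Folr2, chr7:101845282-101845581 on the minus strand, is not printed and also held 0 matches to the PU.1 core and 1 to the MAF half-site. Of 32851 RefSeq promoter windows of the same length, 28.3% held the PU.1 core and 19.5% the MAF half-site. These matches describe letters only, and binding was not measured.

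Each receptor had its own distribution over the cells of the lung. Cells were classed by marker genes that did not include the 4 receptors. C1q macrophages (664 cells) are macrophages with high levels of the complement genes C1qa, C1qb and C1qc, and alveolar macrophages (978 cells) carry Ear1, Fabp1 and Plet1. Classical monocytes (338 cells), nonclassical monocytes (366 cells) and endothelial cells (738 cells) were also compared. C1q macrophages held 79.7% of all Folr2 UMIs and 74.1% of all Cd163 UMIs in kept cells. They held 16.4% of Mrc1 UMIs and 10.4% of Lyve1 UMIs. Alveolar macrophages held 69.6% of Mrc1 UMIs, and endothelial cells held 78.7% of Lyve1 UMIs. Most Cd163 and Folr2 UMIs thus came from C1q macrophages, most Lyve1 UMIs from endothelial cells and most Mrc1 UMIs from alveolar macrophages.

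**Figure D1:**
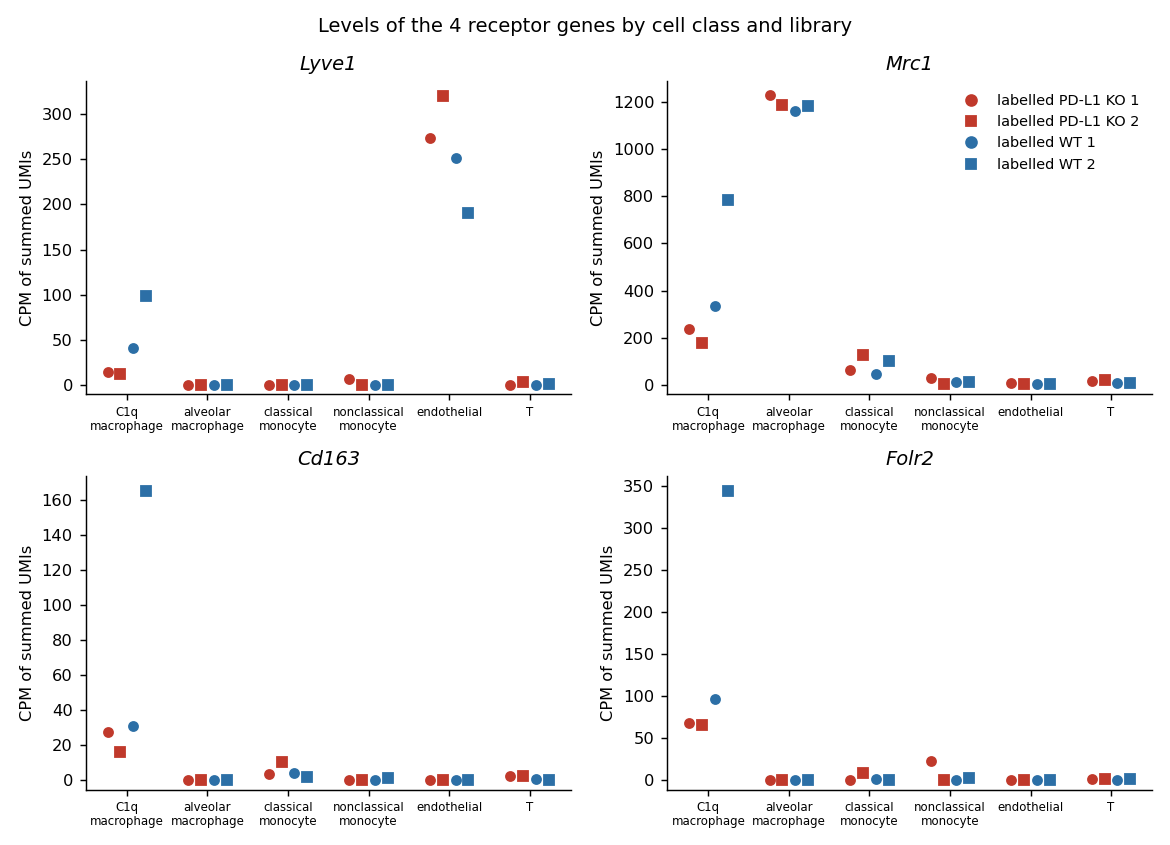
Level of each receptor gene (CPM of UMIs summed over the cells of a class, linear axes) in 6 cell classes, with 1 point per library, libraries labelled PD-L1 KO left of those labelled WT. Folr2 and Cd163 stand highest in C1q macrophages, Mrc1 in alveolar macrophages and Lyve1 in endothelial cells.

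Folr2, the folate receptor, had 68.9 and 66.2 CPM in C1q macrophages of the libraries labelled PD-L1 KO, against 97.5 and 345 CPM in those labelled WT. CPM here is UMIs summed over the cells of a class, per 1000000 UMIs of that class. In the other 4 classes named above Folr2 did not exceed 23.3 CPM in any library, and that value came from 13 UMIs in 1 nonclassical monocyte. It was found in 3 of 978 alveolar macrophages, or 0.307%, which is below the 0.517% of T cells with a UMI. The source of these few UMIs was not tested.

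Cd163, the haemoglobin scavenger, in C1q macrophages had 27.6 and 16 CPM in the libraries labelled PD-L1 KO, against 31.0 and 165 CPM in those labelled WT. It was found in 0 of 978 alveolar macrophages, where 3 counts would have given 0.908 to 1.37 CPM per library, and in 0 of 738 endothelial cells. Classical monocytes held 2.07 to 10.5 CPM, from 8 cells.

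Mrc1, the mannose receptor, was detected in more cells than any of the other 3 receptors, 1845 in all. In alveolar macrophages it had 1226 and 1185 CPM in the libraries labelled PD-L1 KO, against 1159 and 1182 CPM in those labelled WT. It was detected in 98.4% of these cells. In C1q macrophages it had 239 and 179 CPM in the libraries labelled PD-L1 KO, against 334 and 783 CPM in those labelled WT. The levels of C1q macrophages stood below those of alveolar macrophages in every library. Classical monocytes followed, at 65.8 and 127 CPM in the libraries labelled PD-L1 KO and 46.2 and 101 CPM in those labelled WT. Mrc1 was seen in 12.1% of classical monocytes, against 3.03% of T cells and 5.72% of B cells, which should lack it (medians of 7241, 4301.5 and 3268 UMIs per cell). With every cell thinned at random to 2000 UMIs, Mrc1 was left in 1.05% to 5.21% of classical monocytes per library in 2.09% to 4.03% of B cells and in 0.306% to 2.15% of T cells. At equal depth the range in classical monocytes thus overlapped those of B and T cells. Nonclassical monocytes, at 3.55% of cells, were within that background without thinning.

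Lyve1, the hyaluronan receptor, had 273 and 321 CPM in endothelial cells of the libraries labelled PD-L1 KO, against 252 and 190 CPM in those labelled WT. In C1q macrophages it had 14.4 and 12.7 CPM in the libraries labelled PD-L1 KO, against 41.2 and 98.6 CPM in those labelled WT. Endothelial levels were above those of C1q macrophages in every library. Lyve1 was present in 45.5% of endothelial cells and 10.2% of C1q macrophages, but in 0.591% of T cells and 0.409% of alveolar macrophages.

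Genes with the most similar pattern were sought over 40 sums, 10 classes in 4 libraries, by Pearson's r of log2(CPM + 1) among 8429 genes. The sums of 1 library share its depth and its free RNA, so r is a description. Pmp22, a membrane protein best known from myelin, was closest to Lyve1 (r = 0.92), followed by Afap1l1, Ednrb (an endothelin receptor), Dlc1 and Cdo1. F7, which encodes coagulation factor VII, was closest to Mrc1 (r = 0.89), followed by Atp6v0d2, Slc7a2, Tfec and Myo7a. Cd163 and Folr2 differed from these in that they resembled each other: Folr2 was the closest gene to Cd163 (r = 0.80), ahead of Gas7, Fcrls, Ccl12 and Cacna1a. The closest genes to Folr2 were Arg1 (arginase 1, r = 0.81), Cxcl13, Ccl8, Ccl12 and C1qc. Cd163, whose mean level was under the minimum for this ranking, would have stood second for Folr2 at r = 0.80. Lyve1 and Mrc1 showed no relation over these classes (r = -0.01).

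Within C1q macrophages the receptors were often found in the same cells. Of 68 cells with a Lyve1 UMI, 66 also had Folr2, 67 had Mrc1 and 46 had Cd163. Of 99 cells with Cd163, 81 had Folr2 and 97 had Mrc1. Among the 177 cells with Folr2, 166 had Mrc1 but 66 had Lyve1 and 81 had Cd163, so Lyve1-bearing cells lay almost entirely within the larger Folr2-bearing group. Mrc1 was also in 55.4% of the cells without Lyve1 and 53.1% of those without Cd163. For Folr2 these shares were 18.6% and 17.0%. All 4 receptors were seen in 46 of 664 cells, only 1 in 228 and none in 253. The number with all 4 was 9 and 6 cells in the libraries labelled PD-L1 KO, against 12 and 19 in those labelled WT. In percent of C1q macrophages this was 4.43% and 3.05% in the libraries labelled PD-L1 KO, against 7.55% and 18.1% in those labelled WT. Of 336 endothelial cells with Lyve1, 29 had Mrc1, 1 had Folr2 and 0 had Cd163, although those 29 were most of the 39 endothelial cells with Mrc1.

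C1q macrophages made up a larger share of the cells in the libraries labelled PD-L1 KO. They were 203 and 197 cells there (9.45% ± 0.434 of kept cells, SD, n = 2), against 159 and 105 cells in those labelled WT (5.46% ± 1.45, SD, n = 2). The 2 groups did not overlap, and the exact two-sided permutation p was 0.333, the smallest that 2 against 2 libraries allow. All 4 receptors were lower per UMI of C1q macrophages in both libraries labelled PD-L1 KO than in both labelled WT, with the values given above. This order of the libraries was shared by 25.6% of the 10219 genes tested in these cells, and nothing is read from it for genes chosen on this contrast.

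**Figure D2:**
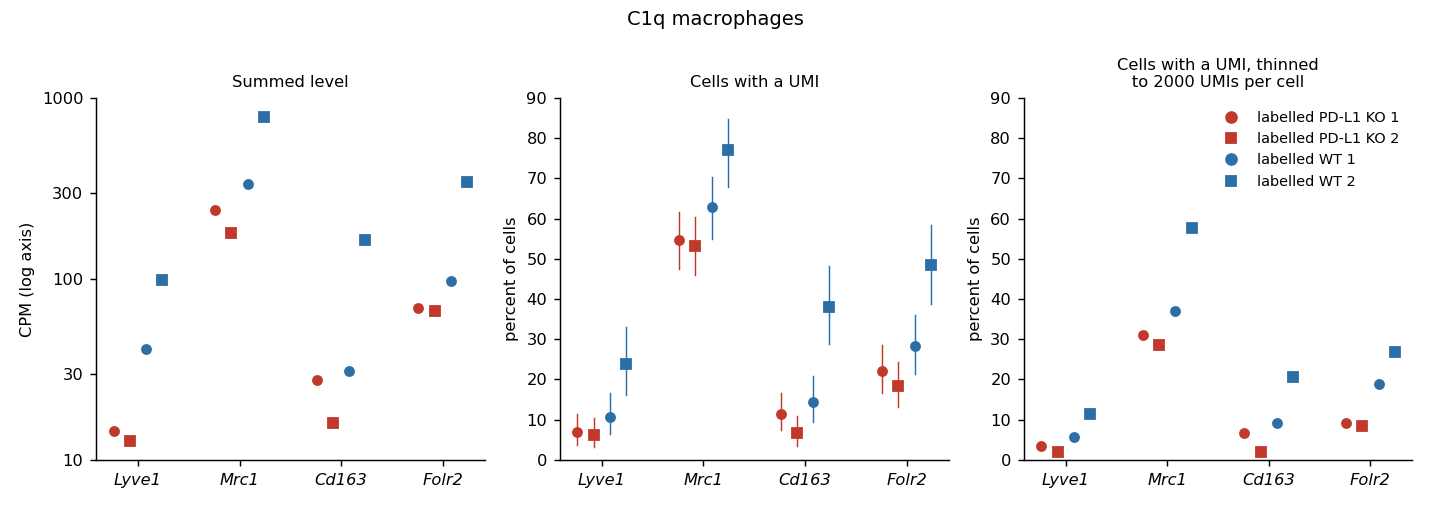
C1q macrophages in each library, PD-L1 KO left of WT: summed level (CPM, log axis), percent of cells with at least 1 UMI (lines are exact 95% Clopper-Pearson intervals, counting error only), and the same percent after each cell was thinned to 2000 UMIs. For every receptor both libraries labelled PD-L1 KO lie below both labelled WT, and library 2 labelled WT lies highest.

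The share of C1q macrophages with a UMI moved in the same way. Folr2 was detected in 22.2% and 18.3% of C1q macrophages in the libraries labelled PD-L1 KO, against 28.3% and 48.6% in those labelled WT. For Cd163 these shares were 11.3% and 6.60% in the libraries labelled PD-L1 KO, against 14.5% and 38.1% in those labelled WT. Lyve1 was detected in 6.90% and 6.09% of cells in the libraries labelled PD-L1 KO, against 10.7% and 23.8% in those labelled WT. For each of these 3 genes, and for Mrc1 below, the intervals of both libraries labelled PD-L1 KO overlapped that of library 1 labelled WT. Mrc1 was detected in 54.7% and 53.3% of cells in the libraries labelled PD-L1 KO, against 62.9% and 77.1% in those labelled WT. The median C1q macrophage had 13430 and 12969 UMIs in the libraries labelled PD-L1 KO, against 12520 and 7468 in those labelled WT. After thinning each cell to 2000 UMIs, Folr2 remained in 9.18% and 8.33% of cells in the libraries labelled PD-L1 KO, against 18.9% and 26.8% in those labelled WT, with 5 to 16 shallower cells per library left out. Groups stayed apart for the other 3 receptors as well. How many of all genes had such an order by share of cells, thinned or not, was not counted. Nothing is read from it for genes chosen on this contrast.

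The UMIs carried by each positive cell are given as a description, since the receptors were chosen on this contrast. Cells with Folr2 held on average 5.0 and 5.64 Folr2 UMIs in the libraries labelled PD-L1 KO, against 5.73 and 6.92 in those labelled WT. Those with Cd163 held 3.91 and 3.77 Cd163 UMIs in the libraries labelled PD-L1 KO, against 3.57 and 4.22 in those labelled WT. Lyve1-positive cells held 3.36 and 3.25 Lyve1 UMIs in the libraries labelled PD-L1 KO, against 6.41 and 4.04 in those labelled WT. Mrc1-positive cells held 7.04 and 5.22 Mrc1 UMIs in the libraries labelled PD-L1 KO, against 8.85 and 9.90 in those labelled WT. The groups overlapped for Cd163, and for Folr2 the nearest libraries stood at 5.64 and 5.73 UMIs. How many of all genes had such an order was not counted.

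In edgeR's quasi-likelihood fit of C1q macrophages, the log2 difference (PD-L1 KO minus WT) was -2.20 (SE 0.38) for Lyve1 and -1.33 (SE 0.35) for Mrc1. It was -1.97 (SE 0.63) for Cd163 and -1.59 (SE 0.46) for Folr2. At a Benjamini-Hochberg adjusted p of 0.05 over all genes, 0 of the 4 receptors passed, as did 0 of 10219 genes (percent called 0), while 742 genes had an unadjusted p under 0.05. DESeq2 called 16 genes (0.157%), among them Lyve1 and Mrc1. Nothing is read from these counts for the receptors, which were known to differ when they were chosen.

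The size of the differences turned on library 2 labelled WT. Without it the log2 difference was -1.57 for Lyve1, -0.65 for Mrc1, -0.47 for Cd163 and -0.50 for Folr2. Without library 1 labelled WT it was -2.75 for Lyve1, -1.80 for Mrc1, -2.80 for Cd163 and -2.24 for Folr2. Leaving out either library labelled PD-L1 KO moved no receptor by as much as leaving out either library labelled WT. The sign was negative for every receptor in each of these fits. Without library 2 labelled WT, the difference of Lyve1 was still the largest of the 4.

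**Figure D3:**
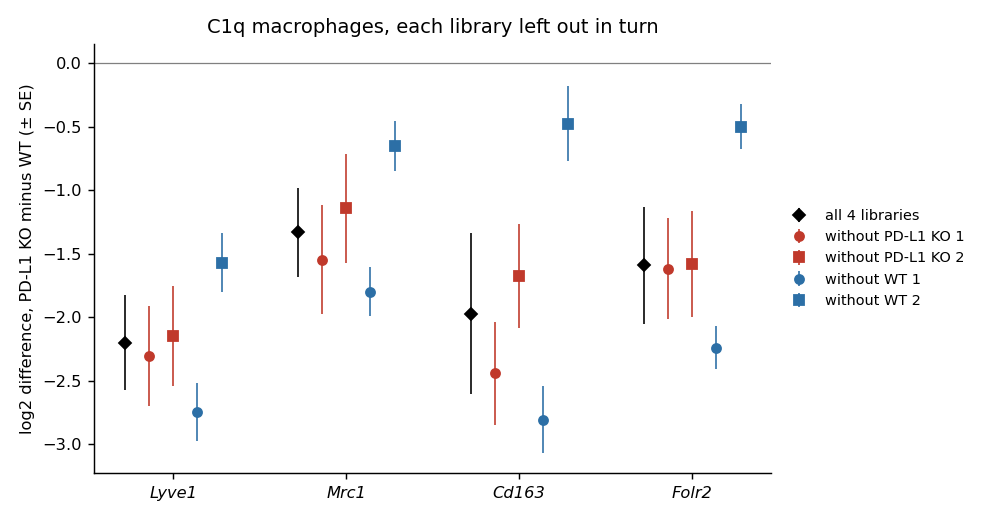
Log2 difference (PD-L1 KO minus WT, points, with SE as lines) of each receptor in C1q macrophages with all 4 libraries and with each library left out in turn. Points lie below 0 in every case and closest to 0 without library 2 labelled WT, at -0.65 for Mrc1 and -0.47 for Cd163.

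C1q macrophages were then split into cells with and without a UMI of Lyve1, Cd163 or Folr2, a split that uses the receptors themselves and is given without a test. Receptor-bearing C1q macrophages numbered 50 and 40 in the libraries labelled PD-L1 KO, against 50 and 57 in those labelled WT. As a share of all kept cells they were 2.25% and 1.98% in the libraries labelled PD-L1 KO, against 2.04% and 2.41% in those labelled WT, and these groups overlapped. C1q macrophages without such a UMI were 6.89% and 7.78% of kept cells in the libraries labelled PD-L1 KO, against 4.45% and 2.03% in those labelled WT. The groups of receptor-free cells thus lay apart, with the libraries labelled PD-L1 KO higher.

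The overlap of the receptor-bearing share was not kept after thinning. Thinning and the loss of shallower cells came together here and cannot be told apart. The thinned receptor-bearing cells numbered 23 and 16 in the libraries labelled PD-L1 KO, against 30 and 35 in those labelled WT. With every cell thinned to 2000 UMIs, receptor-bearing cells were 1.21% and 0.983% of the cells that deep in the libraries labelled PD-L1 KO, against 1.54% and 1.83% in those labelled WT, without overlap. Receptor-free cells were 9.13% and 10.8% of those cells in the libraries labelled PD-L1 KO, against 5.79% and 3.24% in those labelled WT. Receptor-bearing cells had medians of 11524 and 15750.5 UMIs in the libraries labelled PD-L1 KO, against 8276.5 and 9290 in those labelled WT.

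**Figure D4:**
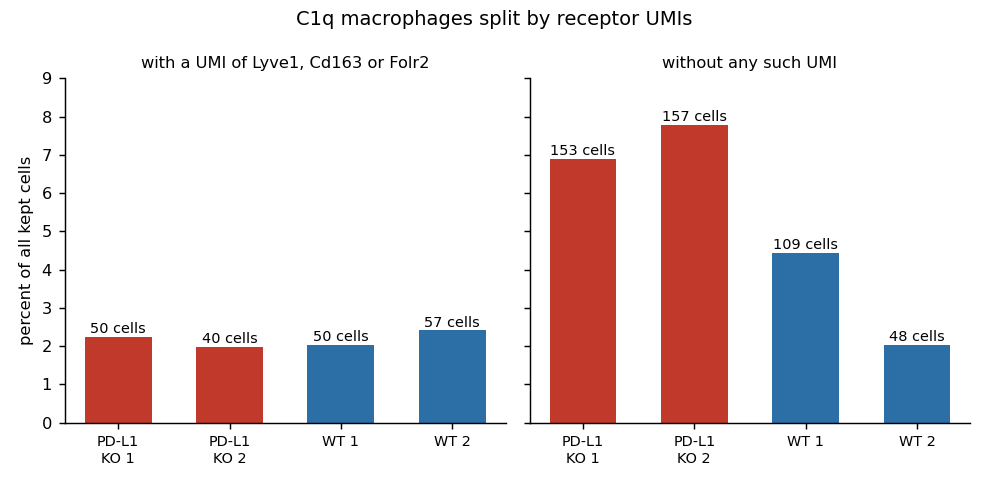
C1q macrophages with (left) and without (right) a UMI of Lyve1, Cd163 or Folr2, as percent of all kept cells of each library (bars, unthinned, libraries labelled PD-L1 KO left of WT), with the number of cells above each bar. Bars with a receptor UMI lie between 1.98% and 2.41%, and bars without one between 2.03% and 7.78%.

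Receptor-bearing C1q macrophages shared other genes that the split did not use. Of 17 genes listed for resident interstitial macrophages, 4 of which (Stab1, Timd4, Cd209d and Cd209f) also stand in another list, 14 were higher in receptor-bearing than in receptor-free cells with no overlap between the 4 libraries of each kind, against 6.74% of 10219 genes tested. Cells of both kinds came from the same 4 libraries, so this describes which genes were found together. Mrc1, which was not used for the split, had 710 ± 289 CPM in receptor-bearing cells and 160 ± 55.2 CPM in receptor-free cells (SD, n = 4). Cbr2, a carbonyl reductase, had 205 ± 72.2 CPM with and 8.09 ± 4.66 CPM without a receptor UMI. Gas6, a ligand that bridges dying cells to TAM receptors, had 256 ± 113 CPM with and 21.4 ± 8.98 CPM without. Selenop (a selenium carrier), Pf4 (a chemokine also stored in platelets), Ccl8 (a chemokine) and Fcgrt (the neonatal Fc receptor) were also among the 14. Timd4, Vsig4 and Cd5l were not, and Vsig4 was seen in 12 UMIs.

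C-type lectins of the Cd209 family divided the cells sharply. Cd209g had 135 ± 73.6 CPM in receptor-bearing cells and 0 UMIs in receptor-free cells of any library. Cd209f had 121 ± 96.2 CPM with and 0.228 ± 0.266 CPM without a receptor UMI. With Cd209b, Cd209d and Clec10a, 5 of 10 lectins and mannose receptor relatives were higher without overlap. Clec4n and Mgl2 were not among them, although Mgl2 was higher in receptor-bearing cells within each library. F13a1, a clotting factor subunit that served as a marker of classical monocytes, had 366 ± 137 CPM with and 20.1 ± 13 CPM without. It was the only 1 of the 5 monocyte markers without overlap between libraries. Ly6c2 and Ccr2 overlapped, although Ccr2 was lower in receptor-bearing cells within each library.

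Other scavenger receptors mostly did not follow. Stab1, a relative of the hyaluronan receptor Stab2, had 433 ± 197 CPM with and 64.7 ± 31.0 CPM without, and Colec12 was also higher. Cxcl16, a chemokine that also binds oxidised lipoproteins, was lower in receptor-bearing cells at 353 ± 99.4 CPM, against 644 ± 70.8 CPM in receptor-free cells, as were 3.28% of all genes tested. The scavenger receptors Msr1, Cd36 and Cd68 overlapped, and so did 6 of the 7 markers that defined the class, all but Apoe. In the haem and iron list Blvrb, a biliverdin reductase, separated the cells without overlap (262 ± 46.3 CPM with and 145 ± 17.1 CPM without). Hmox1, the haem-degrading enzyme, overlapped between libraries (280 ± 158 CPM with and 124 ± 115 CPM without). Within each library, however, Hmox1 was higher in receptor-bearing cells.

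**Figure D5:**
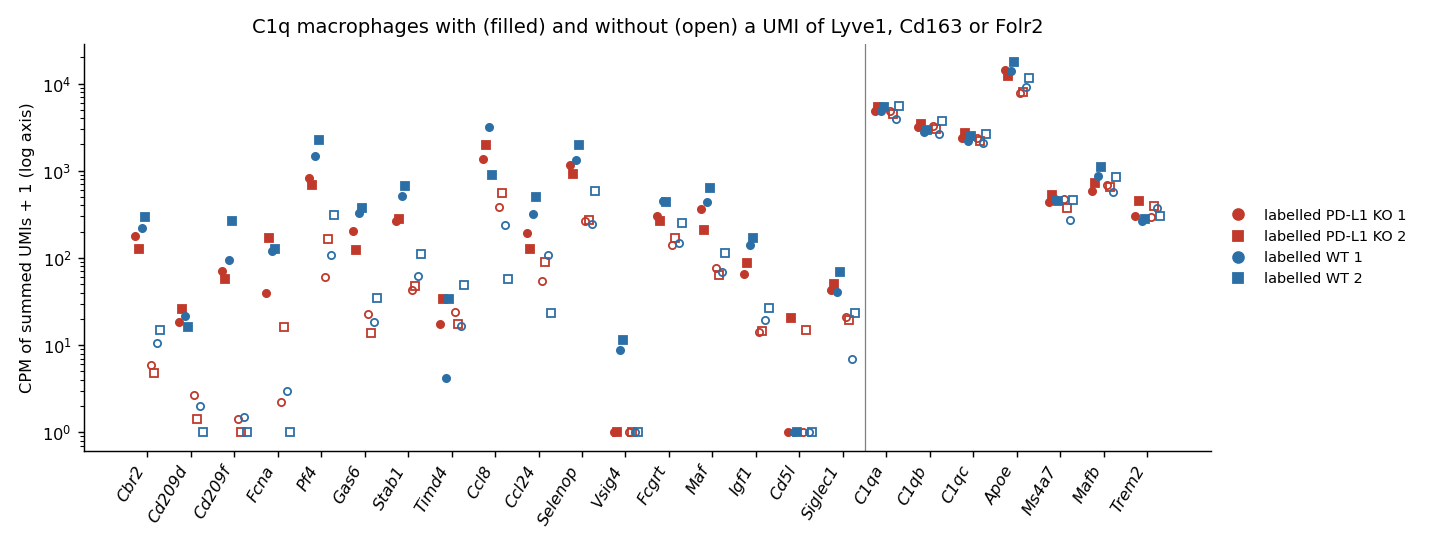
Level (CPM + 1, log axis) of the resident interstitial macrophage list (left of the line) and the markers that defined C1q macrophages (right of it) in C1q macrophages with (filled) and without (open) a UMI of Lyve1, Cd163 or Folr2, 1 point per library. Filled points lie above all open points for 14 of 17 resident genes and, among the markers, for Apoe.

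Between labels, the genes of that resident list moved in the same direction as the receptors in C1q macrophages, and none passed the test. Of 15 that were tested, 13 had lower and 2 higher values in the libraries labelled PD-L1 KO, with a median log2 difference of -1.19. Over all 10219 genes 50.7% had lower values, and the median was -0.01. Pf4 had 262 and 288 CPM in the libraries labelled PD-L1 KO, against 441 and 1560 CPM in those labelled WT (log2 -1.77, SE 0.47, edgeR adjusted p = 0.574). Selenop had 500 and 421 CPM in the libraries labelled PD-L1 KO, against 503 and 1487 CPM in those labelled WT (log2 -1.02, SE 0.41, edgeR adjusted p = 0.674). Ccl8, by contrast, overlapped, at 647 and 893 CPM in the libraries labelled PD-L1 KO, against 934 and 596 CPM in those labelled WT. Library 2 labelled WT was the highest for Pf4 and Selenop and the lowest for Ccl8.

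The lists built around the function of each receptor were mixed, and their counts stand beside the same 50.7% of all genes with lower values. For MRC1, 7 of 8 tested lectins and relatives had lower values (median log2 -1.28), among them Cd209f (-2.38, SE 0.74, edgeR adjusted p = 0.638) and Clec10a (-1.55, SE 0.48, edgeR adjusted p = 0.638). For CD163, 6 of 8 haem and iron genes had higher values (median log2 0.31): Hmox1 had 120 and 340 CPM in the libraries labelled PD-L1 KO, against 141 and 86.9 CPM in those labelled WT, so the groups overlapped. The ferritin chains Fth1 and Ftl1 stood at log2 0.65 (SE 0.31) and 0.38 (SE 0.22). For LYVE1, 4 of 6 hyaluronan genes had lower values (median log2 -0.12), with Cd44, the main leukocyte hyaluronan receptor, at -0.19 (SE 0.20). For FOLR2, the reduced folate carrier Slc19a1 stood at -0.21 (SE 0.47) and Izumo1r at 0.84 (SE 0.43), the 2 of 4 folate genes that could be tested. Other scavenger receptors were evenly divided, with 5 of 12 lower and a median of 0.01. No gene of any list passed edgeR's test in C1q macrophages.

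Markers of other cells were also found within C1q macrophages. The 7 endothelial markers summed to 55.7 and 40.8 CPM in the libraries labelled PD-L1 KO, against 38.9 and 60.6 CPM in those labelled WT, with none at 0 over all cells. In the C1q macrophages without any endothelial marker UMI (134 and 122 cells labelled PD-L1 KO, 103 and 65 labelled WT), Lyve1 had 19.0 and 7.17 CPM in the libraries labelled PD-L1 KO, against 27.8 and 93.1 CPM in those labelled WT. The log2 difference of Lyve1 in those cells was -2.0 (SE 0.55). Cd163 then overlapped, at 36.8 and 13 CPM in the libraries labelled PD-L1 KO, against 30.9 and 171 CPM in those labelled WT. Neutrophil markers summed to 691 and 880 CPM in the libraries labelled PD-L1 KO, against 649 and 1279 CPM in those labelled WT, and B cell markers to 422 and 396 CPM in the libraries labelled PD-L1 KO, against 535 and 808 CPM in those labelled WT. Both lists were highest in library 2 labelled WT, where the receptors were highest too, and their part in the differences was not tested.

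In the other mononuclear phagocytes no receptor passed the test. Nothing is read from this outcome, or from the calls below, for receptors that were chosen on these cells. In alveolar macrophages Mrc1, the only receptor with enough counts to test, differed by log2 0.07 (SE 0.06) and did not pass, while 48 of 9589 genes did (0.501%). Both libraries labelled PD-L1 KO were higher than both labelled WT, as were 17.9% of genes, but the nearest libraries stood at 1185 CPM labelled PD-L1 KO and 1182 CPM labelled WT. In classical monocytes the Mrc1 difference was log2 0.41 (SE 0.40) with overlapping groups, and 1 of 6650 genes passed (0.015%). None of the 4 receptors could be tested in nonclassical monocytes, where 1 of 6218 genes passed (0.0161%). When C1q and alveolar macrophages and both kinds of monocyte were summed, 31 of 11360 genes passed in edgeR (0.273%) and 0 of the 4 receptors, and DESeq2 called 0.827% of genes, Lyve1 among them. The differences were then log2 -1.47 (SE 0.23) for Lyve1, -0.29 (SE 0.11) for Mrc1, -1.09 (SE 0.48) for Cd163 and -0.74 (SE 0.31) for Folr2. Without library 2 labelled WT they were -1.20 for Lyve1, -0.19 for Mrc1, -0.10 for Cd163 and -0.12 for Folr2. Without library 1 labelled WT they were -1.73 for Lyve1, -0.38 for Mrc1, -1.76 for Cd163 and -1.22 for Folr2. Lyve1, Mrc1 and Folr2 were lower in both libraries labelled PD-L1 KO than in both labelled WT, as were 32% of genes, while Cd163 overlapped. This sum mixes the classes, and the smaller value for Mrc1 stood beside alveolar macrophages that held 12780 of its 16068 UMIs.

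A single gene of the receptor lists passed in any class. Cxcl16 rose in alveolar macrophages, to 33.6 and 38.0 CPM in the libraries labelled PD-L1 KO, against 17.0 and 16 CPM in those labelled WT (log2 1.13, SE 0.17, edgeR adjusted p = 0.0229). The call was lost without any 1 of the 4 libraries, at adjusted p of 0.0666 to 0.181, while the log2 difference stayed between 1.05 and 1.22. Msr1, the class A scavenger receptor, had 109 and 110 CPM in the libraries labelled PD-L1 KO, against 74.2 and 55.2 CPM in those labelled WT (log2 0.76, SE 0.14, edgeR adjusted p = 0.0518).

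Endothelial cells lay outside the macrophages and monocytes by which the receptors were chosen, and Lyve1 was tested there. Earlier results of these libraries were known at the choice, however, and endothelial cells held 78.7% of Lyve1 UMIs. The p-value of Lyve1 may thus not be independent of the choice. The log2 difference was 0.43 (SE 0.15, edgeR adjusted p = 1.00), so it did not pass, and 0 of 10248 genes did (percent called 0). It was 0.24 without library 2 labelled WT and 0.64 without library 1 labelled WT. Its CPM was higher in each library labelled PD-L1 KO than in either one labelled WT, an order found for 14.9% of genes. Lyve1 was detected in 50.3% and 46.6% of endothelial cells in the libraries labelled PD-L1 KO, against 47.1% and 42.1% in those labelled WT. Mrc1 in these cells was at 6.26 to 9.16 CPM (log2 0.30, SE 0.40, edgeR adjusted p = 1.00).

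Markers of lymphatic vessels were unevenly present in these Lyve1-bearing endothelial cells. Prox1, the transcription factor that sets lymphatic identity, was seen in 3 of 336 endothelial cells with Lyve1 and in 2 of 402 without. At least 2 of the 5 lymphatic markers were present in 72 endothelial cells, 57 of which had Lyve1. Flt4, the receptor VEGFR-3 of lymphatic and some blood vessel endothelium, had 80.4 to 110 CPM in cells with Lyve1 and 50.9 to 109 CPM in cells without, so the ranges overlapped. Vwf, the endothelial clotting protein von Willebrand factor, had 188 ± 105 CPM in cells with Lyve1 and 29.7 ± 19.8 CPM in cells without (SD, n = 4), with no overlap between the libraries. Car4, a carbonic anhydrase of lung capillary endothelium, had 532 ± 52.7 CPM with and 735 ± 108 CPM without Lyve1, and Cldn5, Tmem100 and Calcrl were also lower with Lyve1. C1qb, a macrophage transcript, reached 122 CPM in the cells with Lyve1 of library 1 labelled WT and 4.22 to 61.5 CPM in those of the other libraries, against at most 3.71 CPM in cells without Lyve1. Its part in the Lyve1 level of endothelial cells was not tested.

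Over whole libraries 0 of the 4 receptors passed edgeR's test with all 4 libraries. Macrophages and monocytes supplied 87.5% of the Mrc1 UMIs, 81.7% of the Folr2 UMIs and 77.2% of the Cd163 UMIs of these sums. The p-values of Mrc1, Folr2 and Cd163 thus rest largely on values by which the receptors were chosen. That of Lyve1 may not be independent of the choice either. Lyve1 had 35.5 and 37.3 CPM in the libraries labelled PD-L1 KO, against 32.2 and 58.2 CPM in those labelled WT (log2 -0.24, SE 0.27, edgeR adjusted p = 0.794). Cd163 had 6.78 and 4.57 CPM in the libraries labelled PD-L1 KO, against 6.84 and 11.7 CPM in those labelled WT (log2 -0.63, SE 0.32, edgeR adjusted p = 0.751). Folr2 had 16.8 and 15.4 CPM in the libraries labelled PD-L1 KO, against 18.2 and 23.9 CPM in those labelled WT (log2 -0.32, SE 0.15, edgeR adjusted p = 0.751). Cd163 and Folr2 were lower without overlap, as were 26.4% of the 13990 genes tested, and 0 genes passed (percent called 0). Mrc1 stood at log2 0.05 (SE 0.19, edgeR adjusted p = 0.943). By edgeR 541 genes had an unadjusted p under 0.05, and DESeq2 called 14 (0.1%). In such sums fewer cells of a type and less RNA per cell cannot be told apart.

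Library 2 labelled WT, with 323 endothelial cells against 116 to 159 in the others, had the highest Lyve1 level, while the other 3 libraries did not follow their numbers of endothelial cells. Without it the log2 difference of Lyve1 turned to 0.19 and that of Mrc1 to -0.18, and those of Cd163 and Folr2 were -0.25 and -0.16. Without library 1 labelled WT, Lyve1 (log2 -0.56, edgeR adjusted p = 0.0179), Cd163 (-0.92, adjusted p = 0.0341) and Folr2 (-0.45, adjusted p = 0.0435) stood under the threshold, and nothing is read from these calls for genes chosen on these libraries. With endothelial, fibroblast and epithelial cells left out, an alternative added after the data had been seen, Lyve1 stood at log2 -0.73 (SE 0.24, edgeR adjusted p = 0.617).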

How the data were processed

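The authors deposited whole-number UMI counts per gene and barcode, with no normalization. The submitters' processing notes name Cell Ranger 3.1.0, STAR and mm10. No annotation release is given in the sources used here. The receptors and gene lists were chosen with earlier results of these data known. In all, 1126 barcodes with under 200 genes or over 10% mitochondrial UMIs were left out. Likely doublets, ranked by Scrublet score, were then left out, at 0.8% for every 1000 barcodes of a library (202 in all). For the marker gate, each marker was log-scaled per 10000 UMIs and divided by its 90th percentile among cells that had it. A cell was classed where its best mean marker score reached 0.2 and led the next class by 0.1, which left 11.4% to 14.1% of cells per library unclassed. The receptors were no markers. UMI totals were 17618220 to 19635983 per library. Intervals, and limits from 3 counts, cover counting error only. Counts summed per library and class were fitted with edgeR 4.0.16 in R 4.3.3 (filterByExpr, TMM, quasi-likelihood test, Benjamini-Hochberg adjustment over all genes of a fit) as PD-L1 KO minus WT, 2 libraries each. Named genes were the 4 of each list with the highest CPM in C1q macrophages and every listed gene that passed. Genes of the cell splits beyond these were named after their values were seen. The fits were tested on simulated counts with the same dispersion for every gene and no outlying library. That setting differs from these data, where library 2 labelled WT stood apart, and nothing is read from it here. Alternatives were no filters, DESeq2 1.42.0, a replicate block, each library left out, doublets kept, a stricter gate (0.3 and 0.2), Leiden clusters in place of the gate, cell means in place of sums, and thinning.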

Additional observations from a re-analysis of the deposited data

Results flagged for a closer look

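Lyve1 ran in opposite directions in 2 cell types. The mean CPM of the libraries labelled PD-L1 KO was 0.194 of that of the libraries labelled WT in C1q macrophages and 1.34 of it in endothelial cells, and every library followed its group in both. Both libraries labelled PD-L1 KO were lower than both labelled WT for 25.6% of genes in C1q macrophages. They were higher for 14.9% of genes in endothelial cells. The difference between the cell types was not tested. For Mrc1 the ratio was 0.374 in C1q macrophages and 1.03 in alveolar macrophages. The alveolar difference was small (log2 0.07, SE 0.06), and the share of alveolar macrophages with Mrc1 overlapped between the groups. In these cells 17.9% of genes were higher in both libraries labelled PD-L1 KO than in both labelled WT. The difference of Mrc1 between the cell types was not tested either. The values in C1q macrophages are those by which the receptors were chosen.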

How the results depend on the processing

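In C1q macrophages all 13 alternatives gave a negative log2 difference for each receptor, from -2.75 to -1.57 for Lyve1, -1.80 to -0.65 for Mrc1, -2.80 to -0.47 for Cd163 and -2.24 to -0.50 for Folr2. Whether they passed was less stable: 4 passed with no filter on low counts, 2 with DESeq2 and 0 to 4 with a library left out (0 without library 2 labelled WT), and nothing is read from these calls for genes chosen on this contrast. Genes passing there numbered 235 with no low-count filter, 16 with DESeq2 and 3 to 369 with a library left out, the highest without library 1 labelled WT. In whole libraries 14 genes passed with DESeq2 and 0 to 2258 with a library left out, and 0 to 3 receptors. In macrophages and monocytes together 597 genes and 3 receptors passed with no low-count filter, 94 genes and 1 receptor with DESeq2, 12 genes with Leiden clusters and 33 to 539 genes and 0 to 3 receptors with a library left out. With doublets kept, 1 receptor passed there, and nothing is read from these receptor calls. In alveolar macrophages 331 genes passed with no low-count filter, 25 with doublets kept, 27 with the stricter gate, 6 with Leiden clusters and 4 to 50 with a library left out. In classical monocytes these counts were 105 with no low-count filter, 0 with the stricter gate, 0 with Leiden clusters and 7 to 60 with a library left out. In nonclassical monocytes they were 46 with no low-count filter, 2 with DESeq2, 0 with the stricter gate, 5 with Leiden clusters and 1 to 39 with a library left out. In endothelial cells they were 46 with no low-count filter and 0 to 47 with a library left out. The cause of these shifts was not tested.

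The replicate numbers did not pair the libraries: deviations of same-numbered libraries correlated at -0.299 in whole libraries, -0.151 in C1q macrophages and 0.003 in endothelial cells. With the replicate number as a block, 185 genes and 1 receptor (Lyve1) passed in macrophages and monocytes together, 0 genes in C1q macrophages, 13 in alveolar macrophages, 0 in classical and 8 in nonclassical monocytes. With the numbers crossed, chosen after seeing the data, 188 genes and 1 receptor passed in macrophages and monocytes together. In C1q macrophages 64 genes and 3 receptors then passed, and in alveolar macrophages 387 genes. Nothing is read from the receptor calls with either block.

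Signs turned for small differences. With a library left out, log2 differences in whole libraries ran from -0.56 to 0.19 for Lyve1 and from -0.18 to 0.32 for Mrc1. For Mrc1 they ran from -0.14 to 1.02 in classical monocytes and from -0.020 to 0.55 in endothelial cells. Mrc1 also turned to -0.078 in whole libraries without endothelial, fibroblast and epithelial cells (chosen after seeing the data), to -0.15 in classical monocytes under the stricter gate and to -0.11 in Leiden clusters of endothelial cells. The Cxcl16 call in alveolar macrophages was lost under 9 of 12 alternatives, with log2 differences of 0.93 to 1.46 over all 12.

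Thinning to 2000 UMIs lowered the mean share of cells with Mrc1 to 38.6% in C1q macrophages, 88.7% in alveolar macrophages, 4.01% in classical monocytes and 0.898% in endothelial cells. It lowered that of Folr2 in C1q macrophages to 15.8% and that of Lyve1 in endothelial cells to 27.8%. Mean Mrc1 levels were 1238 CPM in alveolar macrophages, 46.0 CPM in classical monocytes and 10.3 CPM in endothelial cells when cells were averaged. In Leiden clusters they were 16.9 CPM in classical and 3.15 CPM in nonclassical monocytes. Outside the classes that hold Cd163, Folr2 and Lyve1, a few cells decide each value, and the part of depth in these values was not tested.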
